A study of Mus musculus with 6 samples.

Results

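Peaks of Flag-tagged OTUD3 were placed around 10 immediate-early genes in mouse epididymal adipose tissue: Egr1, Egr2, Klf4, Klf6, Klf9, Btg2, Ier2, Dusp1, Zfp36 and Ppp1r15a. These genes are 10 of 21887 protein-coding genes with a position on mouse build GRCm38 (mm10). They were picked because they had peaks at their gene ends in these lists and do not encode bZIP factors, so their gene-end counts below are a description and carry no test. OTUD3 is a deubiquitinase, an enzyme that takes ubiquitin off proteins. In the study, mice received an adeno-associated virus of serotype 2 carrying Otud3 with a Flag tag (AAV2-Otud3-Flag) by i.p. injection, and the fat pads were taken in week 4. Chromatin immunoprecipitation with a Flag antibody was followed by sequencing in 3 libraries, numbered 1, 3 and 4, and 3 input libraries with no antibody carry the same numbers. All 6 libraries come from mice given this vector. The promoter that drives the transgene, the strain, sex and age of the mice, and whether each library is a separate animal are not given in the sources used here. The spread between libraries may therefore be technical. The labels name the source as adipocytes while the protocol describes whole fat pads, and peak lists hold no expression with which to check the cell type.

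Immediate-early genes are switched on within minutes of a stimulus, from existing transcription factors and without new protein synthesis. Serum response factor, bound at CArG boxes, and CREB, bound at cyclic AMP response elements, are among the factors known to start them. Some of their products are transcription factors that pass the signal on, such as the EGR and KLF zinc finger proteins. Others act as brakes on the signal, among them the MAP kinase phosphatase DUSP1 and the mRNA-destabilising protein tristetraprolin, encoded by Zfp36. In adipocytes, insulin and catecholamines are among the stimuli known to induce members of this class.

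The lists held 11871, 6531 and 13496 distinct peaks in replicates 1, 3 and 4, of which 40, 26 and 67 had a q below 0.05. Peaks were weak throughout, with a median of 4, 6 and 5 fragments at the summit. The lowest local background was 0.407, 1.17 and 0.839 fragments, so replicate 1 was the shallowest library by this measure and replicate 3 the deepest. Fold and q are the authors' caller values. A percentile of fold ranks a peak within its own list alone.

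The 10 genes had 51 summits inside the gene or within 20 kb of it, and the libraries contributed unequally. Replicate 1 had 33 of them, replicate 3 had 11 and replicate 4 had 7, although the list of replicate 4 is the longest. A summit lay within 1 kb of a gene end in 8 of the 10 genes in replicate 1, in 4 in replicate 3 and in 0 in replicate 4. Across all protein-coding genes the same was true of 3.49%, 1.33% and 1.97%, and of 6.6% in at least 1 list. The members' counts were fixed by the choice of the genes and nothing is read from the difference. Egr1 and Btg2 were the only members with a gene-end summit in 2 lists, which across all genes held for 0.192%. No gene in the table had a gene-end summit in all 3 lists (0%). Leaving out replicate 1 took the number of the 10 genes with a gene-end summit from 10 to 4.

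**Figure D1:**
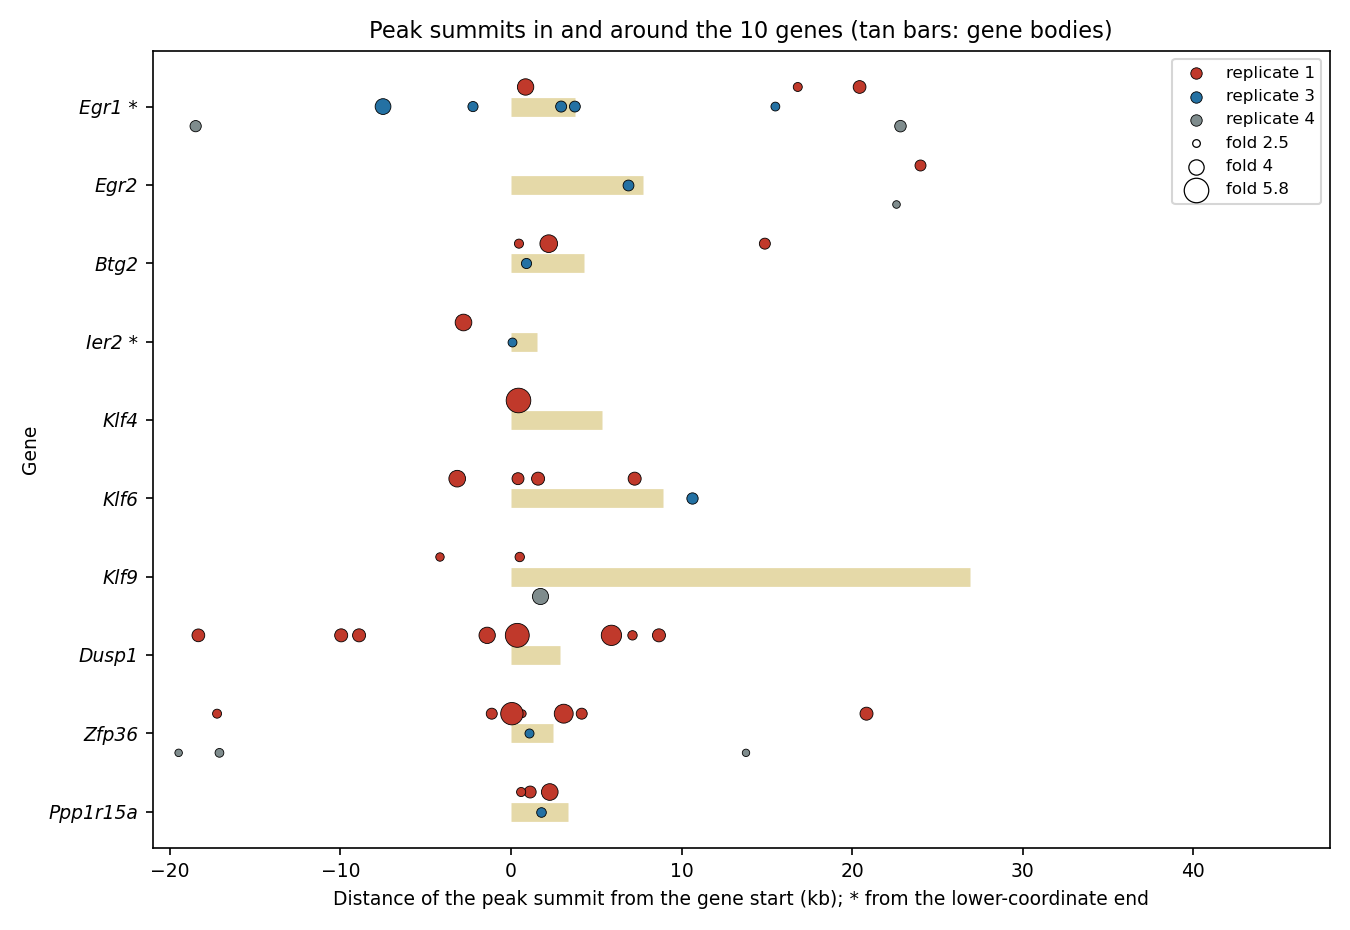
Position of every peak summit in and around the 10 genes, in kb from the gene start in the direction of transcription (from the lower-coordinate end for Egr1 and Ier2, which have no listed strand). Tan bars are gene bodies, colours are the 3 libraries and the area of a point grows with the caller's fold. Replicate 1 gave 33 of the 51 points, 8 of them around Dusp1 and 7 around Zfp36, and the 7 points of replicate 4 lie outside the gene bodies except for 1 in Klf9.

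Counts within 1 kb of the transcription start alone could be made for 8 of the 10 genes, those with a start in the RefSeq table. In replicate 1 a summit lay within 1 kb of the start in 7 of these 8, in replicate 3 in 1 (Btg2) and in replicate 4 in 0. Over the 17492 protein-coding genes with a listed start the shares were 2.38%, 0.686% and 0.909%. In at least 1 list it was 7 of the 8 members, all but Egr2, and 3.94% of all genes. Of the 15 summits near a gene end, 11 lay at genes with a known strand. The start was the nearer end for 9 of these 11 (81.8%), made up of 8 of 9 in replicate 1 and 1 of 2 in replicate 3, and the far end was nearer for a summit of Zfp36 in replicate 1 and for one of Egr2 in replicate 3. Over all genes the start was the nearer end for 49.8% of such summits, with 58.8%, 41.4% and 39.0% in replicates 1, 3 and 4. The gene-end summits of the members mostly fell within the transcribed unit, with 9 of 10 in replicate 1 and 4 of 5 in replicate 3 inside the gene. Over all genes the inside share was 57.1%, 52.9% and 42.6% in replicates 1, 3 and 4. Each gene-end window reaches 1 kb to either side of the end, as far outside the gene as inside. The windows cover all of Ier2 (1.522 kb), the shortest member, but little of Klf9 (26.904 kb), the longest.

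The 250 bases upstream of the start are printed for the 3 genes whose peak near the start had a q below 0.05, and for Btg2 and Ppp1r15a because they carry the same full cyclic AMP response element as Dusp1. Sequences are from RefSeq, build GRCm38.p6, 5′ to 3′ on the coding strand, which is the minus strand for all 5. Capitals mark cyclic AMP response elements (TGACGTCA), their half-sites (TGACG) and CArG boxes, searched on both strands. The windows are chr17:26508473-26508722 for Dusp1, chr4:55532476-55532725 for Klf4, chr7:28379229-28379478 for Zfp36, chr1:134079156-134079405 for Btg2 and chr7:45526269-45526518 for Ppp1r15a.
Dusp1: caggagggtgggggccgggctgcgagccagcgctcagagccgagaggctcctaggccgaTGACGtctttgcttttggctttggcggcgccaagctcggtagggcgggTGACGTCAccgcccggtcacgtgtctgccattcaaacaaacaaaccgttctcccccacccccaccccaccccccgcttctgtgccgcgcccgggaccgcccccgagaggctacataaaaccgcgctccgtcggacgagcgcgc
Klf4: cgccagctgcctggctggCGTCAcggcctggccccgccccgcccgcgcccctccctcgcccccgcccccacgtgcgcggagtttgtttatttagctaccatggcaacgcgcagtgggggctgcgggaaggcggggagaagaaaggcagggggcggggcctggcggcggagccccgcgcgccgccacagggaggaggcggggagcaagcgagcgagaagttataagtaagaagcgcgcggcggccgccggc
Zfp36: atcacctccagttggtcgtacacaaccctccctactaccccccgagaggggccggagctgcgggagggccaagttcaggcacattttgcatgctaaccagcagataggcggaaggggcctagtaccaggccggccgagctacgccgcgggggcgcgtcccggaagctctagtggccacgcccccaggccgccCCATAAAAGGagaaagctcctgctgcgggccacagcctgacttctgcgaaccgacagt
Btg2: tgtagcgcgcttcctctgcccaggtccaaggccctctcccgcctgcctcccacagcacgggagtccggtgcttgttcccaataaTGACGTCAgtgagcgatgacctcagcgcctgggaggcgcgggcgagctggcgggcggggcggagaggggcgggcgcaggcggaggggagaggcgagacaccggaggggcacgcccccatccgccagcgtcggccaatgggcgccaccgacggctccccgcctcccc
Ppp1r15a: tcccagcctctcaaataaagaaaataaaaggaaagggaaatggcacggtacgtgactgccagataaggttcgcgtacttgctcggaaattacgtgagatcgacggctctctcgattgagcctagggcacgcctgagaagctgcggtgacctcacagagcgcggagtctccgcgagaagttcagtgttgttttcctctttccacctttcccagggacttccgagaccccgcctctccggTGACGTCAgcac

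A full cyclic AMP response element stood in 3 of the 8 genes with a promoter in the table (Btg2, Dusp1 and Ppp1r15a), and 1.92% of the 21263 listed promoters held one. Members were counted by gene and the shares by promoter. Egr2, with several listed starts, therefore counts where any of its windows matched. In Dusp1 it lay 136 to 143 bases before the start, in Btg2 159 to 166 and in Ppp1r15a 5 to 12. The half-site, which the full element contains on each strand, was found in 6 of the 8 (20.2% of promoters), with Egr2, Klf4 and Klf9 added. A CArG box was found in Egr2 and Zfp36 and in 1.39% of promoters. That of Zfp36 lay 49 to 58 bases before the start, under a peak of replicate 1, which covered 86 of the 250 bases. This was the only member promoter window with a peak over it in any list. The GC box GGGCGG was present in 6 of the 8 (42.6% of promoters) and the CCAAT box in 4 (35.4%). The TATA box TATAAA (11.6%), the AP-1 site TGACTCA (4.06%) and the EGR site GCGTGGGCG (0.72%) had no match in these windows. The upstream windows of Klf4 (74% G and C), Btg2 (73.2%) and Dusp1 (68.4%) were richer in G and C than the median promoter (55.6%), and that of Ppp1r15a (54.4%) was close to it. These matches describe letters in the windows and do not show that a factor was bound.

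Egr1 encodes the best-known immediate-early zinc finger factor, which binds GC-rich sites. The gene lies on chromosome 18 at 34861207 to 34864956 and had 3, 5 and 2 summits in replicates 1, 3 and 4 (mean 3.33 ± 1.53, SD, n = 3). In replicate 1 a peak at 34861955 to 34862199 had its summit 860 bp inside the lower-coordinate end, holding 6 fragments at a fold of 4.21 (q = 0.342). In replicate 3 a pair of peaks stood at the opposite end of the gene, with folds of 3.16 and 3.13 from 6 fragments each (q = 0.950 for both). Their summits were 804 bp inside that end and 1 bp beyond it. The libraries thus marked different ends of Egr1, with their gene-end summits at least 2085 bp apart. The highest fold that replicate 3 gave at Egr1 was 4.09 from 9 fragments, 7496 bp outside the lower end (q = 0.392). Its other 2 summits, 2223 bp outside the lower end and 11754 bp beyond the higher end, had folds of 2.99 and 2.74. Replicate 1 had 2 more beyond the higher end, at 13067 and 16690 bp, with folds of 2.76 and 3.50. Replicate 4 had folds of 3.21 and 3.26, both over 18 kb from the gene (18480 and 19087 bp).

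Egr2, a relative of Egr1 known for its part in early adipocyte differentiation and in myelination, lies on chromosome 10 at 67534469 to 67542188. It had 1 summit in each library (mean 1 ± 0, SD, n = 3), a set of 3 single peaks at different positions. The peak of replicate 3 was inside the gene, 827 bp before the far end, with a fold of 3.13 from 6 fragments (q = 0.950). The peaks of replicates 1 and 4 lay 16252 and 14849 bp beyond the far end, with folds of 3.16 and 2.49 from 4 fragments each (q = 0.651 and 1). These were 1403 bp apart and did not overlap. No library had a summit within 1 kb of any of the listed starts of Egr2.

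Klf4, a Krüppel-like factor known both in early adipogenesis and in the reprogramming of cells to pluripotency, had 1 summit in all lists together. The peak, in replicate 1 at chr4:55531901-55532175, held 8 fragments against a background of 0.545, with a 95% exact Poisson interval of 3.45 to 15.8 for the fragments. Its fold of 5.83 (q = 0.00824) was at percentile 99.99 of that list, and the summit stood 438 bp downstream of the start. Replicates 3 and 4 had 0 summits within 20 kb. Klf4 thus joined the highest fold of any member to the lowest number of summits.

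Klf6, a Krüppel-like factor known to be induced in injured tissue, had 4, 1 and 0 summits (mean 1.67 ± 2.08, SD, n = 3). All 4 in replicate 1 lay inside the gene or 3148 bp upstream of its start on chromosome 13 at 5861489. The one nearest the start, 416 bp inside, held 5 fragments at a fold of 3.34 (q = 0.651), and the upstream one held 5 fragments at a fold of 4.27 (q = 0.342). The other 2 were 1593 bp from the start and 1650 bp from the far end, both with a fold of 3.55 from 4 fragments. In replicate 3 the single summit was 1720 bp beyond the far end, with a fold of 3.22 from 6 fragments (q = 0.950). Klf9, a Krüppel-like factor induced by glucocorticoids, had 2, 0 and 1 summits (mean 1 ± 1, SD, n = 3). Near its start on chromosome 19 at 23141226, replicate 1 had a fold of 2.84 from 3 fragments, 517 bp inside the gene (q = 0.992), and another of 2.66 from 3 fragments 4158 bp upstream. Replicate 4 had a fold of 4.16 from 7 fragments, 1715 bp inside (q = 0.262), which was its only summit within 10 kb of any of the 10 genes and stood at percentile 96.4 of its list. The closest summits of these libraries at Klf9 were 1198 bp apart.

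**Figure D2:**
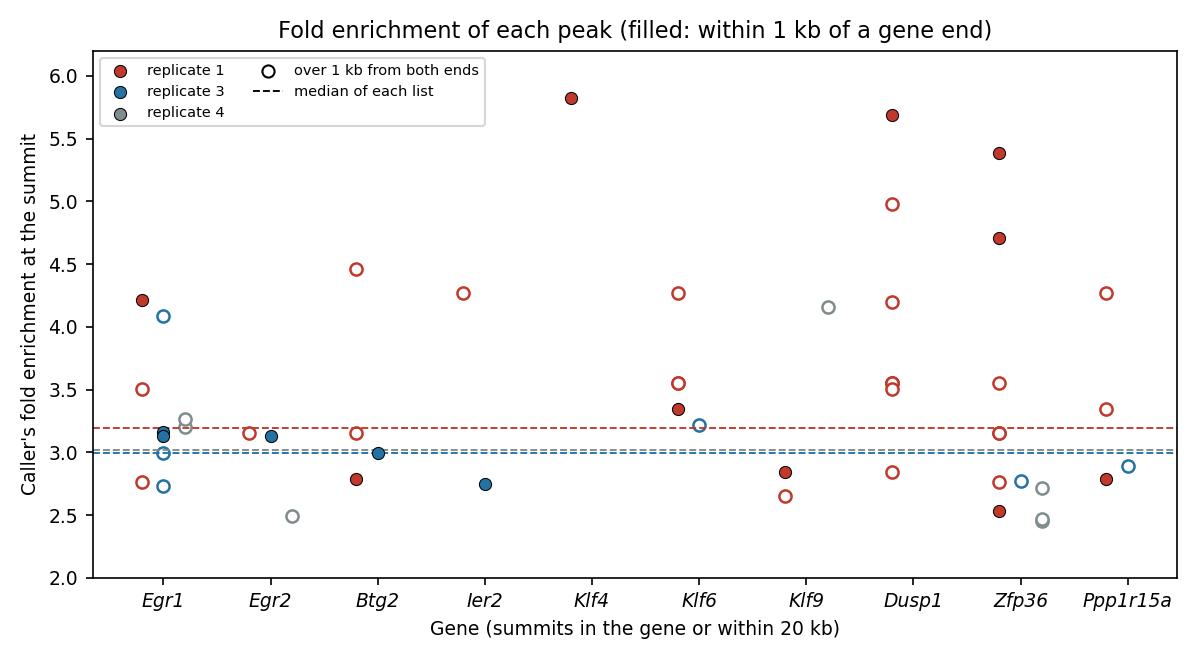
Fold enrichment from the authors' caller (vertical axis, starting at 2) for each of the 51 summits, by gene and library. Filled points lie within 1 kb of a gene end, open points lie elsewhere in the gene or within 20 kb, and dashed lines are the medians of each whole list. The highest points are those of Klf4 (5.83), Dusp1 (5.69) and Zfp36 (5.38) in replicate 1, and the points of replicate 4 at Zfp36 lie below its median.

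Dusp1 encodes a nuclear phosphatase that inactivates the MAP kinases p38, JNK and ERK and so closes the signal that induced it. It had 8 summits in replicate 1 and 0 in replicates 3 and 4 (mean 2.67 ± 4.62, SD, n = 3). The peak at chr17:26507734-26508312, with its summit 374 bp downstream of the start, had 7 fragments (exact Poisson 95% interval 2.81 to 14.4) and a fold of 5.69 (q = 0.0132). A further peak of 6 fragments, 3011 bp beyond the far end, reached a fold of 4.98 (q = 0.0977), and one 1392 bp upstream of the start reached 4.20 from 5 fragments (q = 0.342). The other 5 had folds of 2.84 to 3.55 from 3 or 4 fragments and stretched from 18321 bp upstream to 5797 bp beyond the far end. Both neighbouring genes are over 50 kb away (Neurl1b at 59.3 kb and Ergic1 at 52.3 kb), and neither had a gene-end summit in any list.

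Zfp36 encodes tristetraprolin, which binds AU-rich elements and hastens the decay of cytokine mRNAs. The gene, on chromosome 7 at 28376784 to 28379228, had 7, 1 and 3 summits (mean 3.67 ± 3.06, SD, n = 3). This was the most of any member within 20 kb, though some of these summits lay inside or nearer to other genes. In replicate 1 the peak at chr7:28379070-28379314 spanned the start, with its summit 57 bp downstream, 7 fragments, a fold of 5.38 and q = 0.0294. A peak 652 bp beyond the far end followed with a fold of 4.71 from 6 fragments (q = 0.109), and a weak one inside the gene had 4 fragments at a fold of 2.53 (q = 0.992). Replicate 3 had a summit inside the gene 1052 bp from the start, with a fold of 2.77 from 7 fragments (q = 0.950). The 3 summits of replicate 4 were all over 10 kb away (11337 to 19478 bp) with folds of 2.45 to 2.72, and all lay inside other genes. One of them, 17086 bp upstream, overlapped a peak of replicate 1 whose summit was 139 bp away, and both summits lie inside another gene, Paf1. Folds there were 2.76 from 3 fragments in replicate 1 and 2.72 from 4 in replicate 4 (q = 0.992 and 1), which placed these peaks at percentiles 17.3 and 31.6 of their lists. The remaining 3 summits of replicate 1 lay 1123 bp upstream of the start and 1707 and 18401 bp beyond the far end, with folds of 3.16, 3.16 and 3.55 from 4 fragments each. That at 18401 bp was nearer to Plekhg2, at 1220 bp.

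Btg2, an antiproliferative gene whose product promotes mRNA deadenylation, had 3, 1 and 0 summits (mean 1.33 ± 1.53, SD, n = 3). Its start is on chromosome 1 at 134079155. Near that start, at 472 bp, replicate 1 had 4 fragments at a fold of 2.79 (q = 0.992), and at 902 bp replicate 3 had 7 fragments at a fold of 3.00 (q = 0.950). These summits were 430 bp apart in intervals that did not overlap. A stronger peak of replicate 1 lay in the middle of the gene, 2072 bp from the nearer end, with a fold of 4.46 from 7 fragments (q = 0.201). Its last summit, 10596 bp beyond the far end, had a fold of 3.16 from 4 fragments.

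Ppp1r15a encodes GADD34, the regulatory subunit that directs protein phosphatase 1 to eIF2α and lets translation resume after stress. It lies on chromosome 7 at 45522917 to 45526268 and had 3, 1 and 0 summits (mean 1.33 ± 1.53, SD, n = 3), all 4 inside the gene. Near the start, replicate 1 had a fold of 2.79 from 4 fragments, 599 bp inside (q = 0.992), and at 1130 bp a fold of 3.34 from 5 fragments (q = 0.651). Deeper in the gene, a peak of replicate 1 at chr7:45523844-45524576 and one of replicate 3 at chr7:45524275-45524592 overlapped. Their folds were 4.27 from 5 fragments (q = 0.342) and 2.89 from 6 fragments (q = 0.950), with summits 496 bp apart. The fold of replicate 1 was at percentile 95.4 of its list and that of replicate 3 at 41.5. This was the only interval inside a member gene that 2 lists shared.

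Ier2, a short gene of a nuclear protein on chromosome 8 at 84661331 to 84662852, had 1, 1 and 0 summits (mean 0.667 ± 0.577, SD, n = 3). That of replicate 3 was 90 bp inside the lower-coordinate end, with a fold of 2.75 from 6 fragments (q = 0.968). That of replicate 1 was 2812 bp outside the same end, with a fold of 4.27 from 5 fragments (q = 0.342). Its fold was higher from fewer fragments, over a background of 0.407 fragments beside 1.55 in replicate 3.

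Of the 51 peaks, 4 overlapped a peak of another list, which were the pairs at Zfp36 and Ppp1r15a. In each whole list 0.901%, 1.35% and 0.763% of peaks overlapped another list. Peaks with a q below 0.05 numbered 3 of 33, 0 of 11 and 0 of 7 around these genes, beside 0.337%, 0.398% and 0.496% of each list. All 3 were near the starts of Klf4, Dusp1 and Zfp36, which are 3 of the 5 genes in the table (0.0228%) with such a gene-end peak in replicate 1. Gene-end peaks chose these genes, so nothing is read from these counts. The median fold around the 10 genes was 3.55, 3.00 and 2.72 in replicates 1, 3 and 4, beside 3.20, 3.00 and 3.02 in the whole lists. In percentiles of fold the medians were 69.1, 49.4 and 31.6. Of the summits behind these medians, 10 of 33 in replicate 1 and 5 of 11 in replicate 3 were gene-end summits, on which the genes were chosen. Summits just inside the limit of 1 kb were those at 827 bp (Egr2, replicate 3), 860 bp (Egr1, replicate 1) and 902 bp (Btg2, replicate 3). Just outside were 1052 bp (Zfp36, replicate 3), 1073 bp (Ppp1r15a, replicate 1) and 1123 bp (Zfp36, replicate 1).

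Away from the gene-end windows the members also had summits, which were not what they were chosen on but belong to the same peak lists and loci. From 1 to 20 kb outside the gene, 8, 2 and 3 of the 10 genes had a summit in replicates 1, 3 and 4, and 23.7%, 12.7% and 20.4% of all protein-coding genes did. It was 8 of 10 in at least 1 list (45.1% of all genes) and 4 in at least 2 lists (10.7%). Egr1 alone had such a summit in all 3 lists (1.04%). Of the 20 neighbours, whose flanks partly hold the same peaks, 14, 8 and 8 had one in replicates 1, 3 and 4, with 18 in at least 1 list, 9 in at least 2 and 3 in all 3. Because they share peaks with the members, the neighbours are not an independent comparison. Of the 9 bZIP immediate-early genes, 7, 4 and 3 had such a summit in replicates 1, 3 and 4, with 9 in at least 1 list. Among 50 other immediate-early genes outside the bZIP family it was 22, 9 and 13, with 31 in at least 1 list. Summits at this distance were thus also found around genes that are not members. Counting the gene and 20 kb either side, 10, 7 and 4 of the 10 were hit, against 38.7%, 24% and 36.1% of all genes. This count includes the gene ends. All 10 were hit in at least 1 list (63.1% of all genes) and 8 in at least 2 (28.2%), the exceptions being Klf4 and Dusp1. Egr1, Egr2 and Zfp36 were hit in all 3 lists, as were 7.41% of all genes. The 20 neighbouring genes were hit in 17, 10 and 14 cases in replicates 1, 3 and 4, with 19 in at least 1 list, 15 in at least 2 and 7 in all 3. Of the 9 bZIP immediate-early genes, 9, 6 and 5 were hit in replicates 1, 3 and 4. Among these, 9 were hit in at least 1 list, 8 in at least 2 and 3 in all 3. Of the 51 summits, 10 were nearer to another protein-coding gene than to the member, among them 6 of the 7 in replicate 4. At Egr1 a summit of replicate 4 lay inside Reep2 and the other was nearer to Etf1. At Egr2 that of replicate 4 was nearer to Ado, and at Zfp36 those of replicate 4 lay inside Plekhg2 and Paf1. Counting only summits nearest to the member, a rule chosen after the values were seen, 9, 7 and 1 of the 10 were hit in replicates 1, 3 and 4, 7 in at least 2 lists and 0 in all 3. In replicate 4, 4 of 10 stood beside 36.1% in the background, a share near it. Among genes no longer than Klf9 the background was 30.7%, 16.7% and 25.7% for this count, and 3.61%, 1.31% and 1.97% at gene ends.

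By distance, replicate 1 had 20.9 summits per 100 kb inside the members. Outside them it had 5 per 100 kb up to 1 kb (1 summit) and 10 per 100 kb from 1 to 5 kb. Over all protein-coding genes it had 0.591, 0.772 and 0.824 in these ranges. The value inside the members was set largely by the choice of the genes, since 9 of the 14 inside summits of replicate 1, and 4 of the 6 of replicate 3, were gene-end summits. The 8 summits from 1 to 5 kb outside belonged to 5 genes: Ier2, Klf6, Klf9, Dusp1 and Zfp36. Beyond 5 kb the members' density in replicate 1 was 3 to 3.5 per 100 kb. Replicate 3 had 8.94 per 100 kb inside, 2.5 from 1 to 5 kb and 0.5 from 10 to 20 kb, beside 0.342, 0.395 and 0.365 over all genes. Up to 1 kb outside it had 5 per 100 kb, from 1 summit, and from 5 to 10 kb 1 per 100 kb. In replicate 4 the order was the other way: 1 summit inside, 0 from the gene edge to 10 kb and 6 from 10 to 20 kb outside (3 per 100 kb). All 6 of these outer summits were nearer to another gene than to the member. Over all genes replicate 4 had 0.644 per 100 kb inside and 0.632 from 10 to 20 kb. Dusp1 and Zfp36 held 15 of the 33 summits of replicate 1. Without this pair its density was 17.8 per 100 kb inside the genes, 0 up to 1 kb outside and 4.69 from 1 to 5 kb. From 5 to 10 kb it was 0 and from 10 to 20 kb 2.5, so it did not fall evenly with distance.

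**Figure D3:**
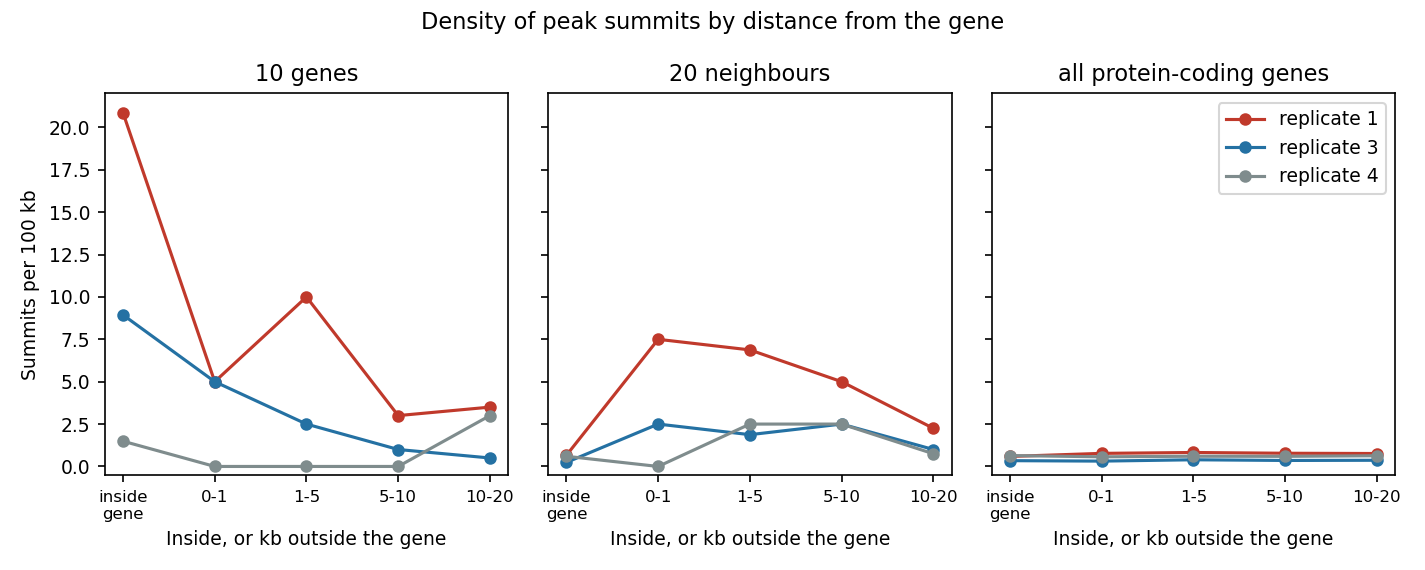
Summits per 100 kb (vertical axis) inside the gene and in 4 distance ranges outside it, for the 10 genes, their 20 neighbours and all 21887 protein-coding genes. Lines are the 3 libraries. In replicate 1 the 10 genes reach 20.9 inside the gene, replicate 3 reaches 8.94 and replicate 4 stays at 1.49, while all protein-coding genes lie below 1 throughout. The 10 genes were chosen on gene-end peaks, most of which lie inside the gene, and the neighbours' flanks include peaks counted for the 10 genes.

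The nearest protein-coding gene on either side of each member gave 20 neighbours, from 0 bp away (Tulp2, which overlaps the far end of Ppp1r15a) to 1252 kb away (Akr1e1, beside Klf6). A gene-end summit was found in 3, 1 and 0 of the 20 in replicates 1, 3 and 4, beside the 3.49%, 1.33% and 1.97% of all genes given above. These were Tulp2, Plekha4 and Cacna1a. The summits at Tulp2 and Plekha4, which starts 61 bp from Ppp1r15a, are the same peaks already described inside Ppp1r15a, so which gene they belong to cannot be told apart. The remaining one lay 98 bp outside the end of Cacna1a, a calcium channel gene beside Ier2, where replicate 1 had 4 fragments at a fold of 3.04 (q = 0.662). Without shared peaks, 1 of 20 neighbours had a gene-end summit in any list. The only gene-end summit of Ppp1r15a is the peak shared with Plekha4, so the same rule would leave this member without one. Inside the neighbours the density in replicates 1, 3 and 4 was 0.66, 0.24 and 0.6 summits per 100 kb, beside 0.591, 0.342 and 0.644 over all genes. Outside the neighbours it was higher: replicate 1 had 7.5 per 100 kb up to 1 kb, 6.88 from 1 to 5 kb and 5 from 5 to 10 kb, part of them peaks of the members. Replicate 4 had 2.5 per 100 kb from 1 to 5 kb outside the neighbours and 0 there outside the members. Around Zfp36, its neighbours Plekhg2 at 4.102 kb and Med29 at 6.018 kb had no summit within 1 kb of their ends. No test of members against neighbours was made, because gene-end peaks chose the members.

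Other immediate-early genes were looked up from a list drawn up with earlier results known. The members, picked for gene-end peaks, were left out of it. That choice lowers its share of genes with such peaks, and nothing is read from the difference to the members. Among 50 such genes outside the bZIP family, 6, 1 and 0 had a gene-end summit in replicates 1, 3 and 4 (12%, 2% and 0%), and 0 had one in at least 2 lists. Over all protein-coding genes the shares were 3.49%, 1.33% and 1.97%, and 0.192% in at least 2 lists. The 4 with the highest percentile of fold were Trib1, a pseudokinase gene (fold 3.37 from 5 fragments), Nfkbia, the inhibitor of NF-κB (3.16 from 4), Per1, a clock gene (3.16 from 4), all in replicate 1, and Socs3, a brake on cytokine signals (2.99 from 6), in replicate 3. None of their peaks had a q below 0.05 (q from 0.651 to 0.992). In the 9 bZIP immediate-early genes 4, 2 and 0 had a gene-end summit in replicates 1, 3 and 4 (44.4%, 22.2% and 0%). Junb, an AP-1 subunit, had one in replicates 1 and 3 with folds of up to 4.98 and 3.23. Neither of these gene sets had a gene-end summit in replicate 4. In sets this small a count of 0 is near the 1.97% of all genes, and nothing is read from it.

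Relatives of the members from the same families were counted beside the 6.6% of all genes with a gene-end summit in at least 1 list. Members, picked for gene-end peaks, were left out, which lowers the shares of their families. In the EGR family with its corepressors, 0 of 5 genes that are not members (Egr3, Egr4, Wt1, Nab1 and Nab2) had one in any list. Of the other 14 KLF genes, 2 had one, both in replicate 1: Klf11 with a fold of 3.28 from 4 fragments and Klf5, a regulator of adipocyte differentiation, with 2.76 from 3. Of the other 9 phosphatases of MAP kinases, Dusp8 alone had one, where replicate 4 had 4 fragments at a fold of 2.41 (q = 1). Among the other 7 genes of the ZFP36, BTG and PPP1R15 families it was Zfp36l2, where replicate 1 had 4 fragments at a fold of 2.79 (q = 0.992). Of 20 genes of the ERK, SRF and CREB inputs, Elk4 and Mapk9 had one in replicate 1, with folds of 3.55 and 3.45 from 4 fragments each, and 0 in replicates 3 and 4. Markers of adipocytes had 1 of 10 (Pparg, in replicate 1), and markers of other cells of the fat pad 0 of 10 in every list. The Pparg summit lay 816 bp outside a gene end, with a fold of 3.34 from 5 fragments (q = 0.651). In sets of 10 genes both counts are near the 6.6% of all genes, so they do not set the cell types apart.

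**Figure D4:**
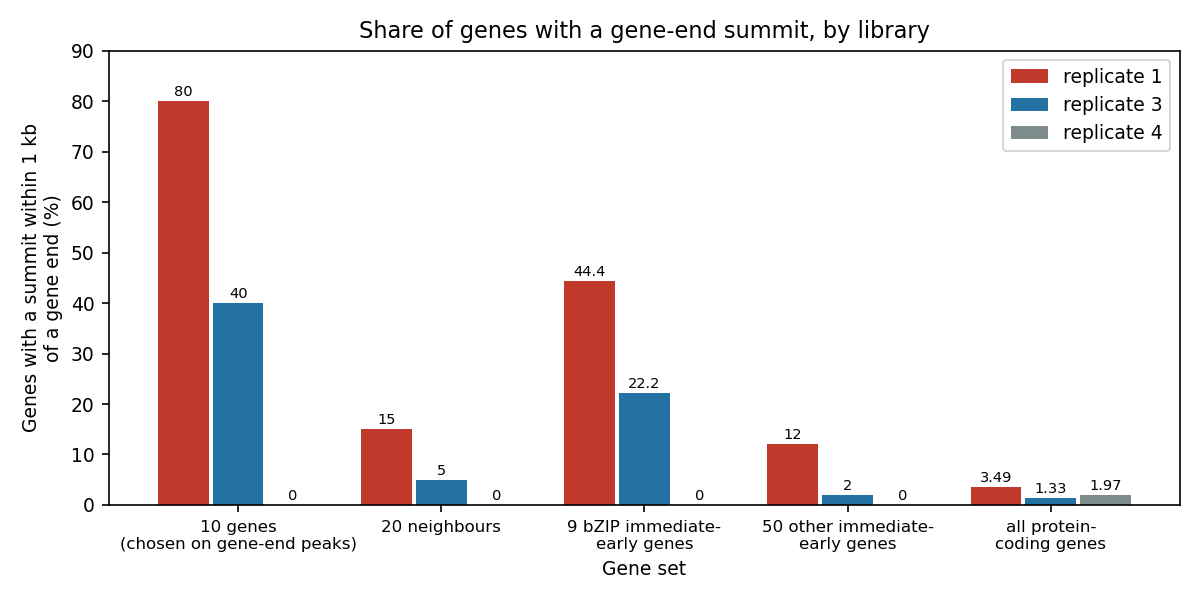
Share of genes (%) with a summit within 1 kb of a gene end, by gene set and library, with the value above each bar. The 10 genes were chosen on this measure, and the other immediate-early genes outside the bZIP family are shown without them, which lowers their share. Replicate 4 stands at 0 in the 4 small sets and at 1.97% over all protein-coding genes.

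Genes with the library pattern of Egr1 and Btg2, gene-end summits in replicates 1 and 3 and none in replicate 4, numbered 19 in the whole table. Ranked by the mean of their percentiles of fold in these 2 lists, Lin54 (85.3), Junb (84.4) and Ifitm3 (77.9) came first, Egr1 had rank 4 (75.9), Gm33049 (74.0) and Cct8 (73.8) followed, and Btg2 was at rank 16 (35.3). This likeness rests on 2 lists and says only where peaks were called.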

How the data were processed

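Members, neighbours, gene lists and windows were chosen with earlier results of these data known. The submitters' processing notes name build mm10 and the tools fastp (0.19.11), BWA (0.7.12) and MACS2 (2.1.0). The authors deposited 1 peak list for each of 3 immunoprecipitated libraries, not pooled. Each peak carries the caller's fold ratio, −log10 p-value and −log10 q-value, and in the deposited lists a whole-number score of 10 times the −log10 p. The control and threshold of the calling are not stated in these labels. The input libraries were not analysed here, and read totals are unknown. Fragments at a summit were solved from fold and p, with a pseudocount of 1, and a whole number matched within 0.001 on the log10 scale for 100% of peaks. Their intervals (95%, exact Poisson) cover counting error only.

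Intervals listed with several summits kept the summit of lowest p. Summits were set against gene positions from RefSeq (GRCm38.p6, 21887 protein-coding genes). A gene end is either annotated end, with 1 kb to each side. The RefSeq promoter table matched 8 of 10 members, without Egr1 and Ier2, and gave strand and starts. All 143 entries of the 9 gene lists (130 distinct genes) matched, 2 by an older symbol. From each list were named the genes with gene-end summits in at least 2 peak lists, otherwise up to 4 by percentile of fold. With 1 group measured, no test between groups was made. Counting was tested on simulated data. Python 3.11.15, pandas 2.3.3, NumPy 2.4.6 and SciPy 1.17.1 were used. Other windows, thresholds and overlap rules were tried, and each library was left out in turn.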

Additional observations from a re-analysis of the deposited data

How the results depend on the processing

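No paired analysis was possible because the input libraries that share the numbers 1, 3 and 4 were not analysed here, and 1 group gives no comparison to pair. Of 112 values recomputed, 82 stayed within 1.5 times the reported value, and 30 moved. This tally is no measure of stability, since some values had little room to move. A count of 0, as in replicate 4 at gene ends, cannot fall under a stricter setting and then counts as unchanged. Keeping every deposited summit added few peaks to the lists. Members with a gene-end summit in replicates 1 and 3 fell from 8 and 4 to 5 and 2 with a 500 bp window. With a 3 kb window replicates 3 and 4 rose to 7 and 1. At a q below 0.05 replicates 1 and 3 had 3 and 0, and all lists together 3 in place of 10. At a fold of at least the median of its list, replicate 1 had 5. With the start alone, replicate 3 had 1, over 8 genes, since Egr1 and Ier2 have no listed start, and those 8 had 2 with either end. Leaving out a replicate gave 4 to 10 members, the lowest without replicate 1. For the gene and 20 kb, replicate 4 fell from 4 to 1 with a 10 kb flank, to 2 at a p of at most 0.001 and to 2 at the median fold, where replicate 3 fell from 7 to 4. At a q below 0.05 replicates 1, 3 and 4 had 3, 0 and 0, and all lists 3. Leaving out a replicate gave 8 to 10. Neighbours with a gene-end summit went from 3, 1 and 0 (3 in all) to 6, 2 and 4 (9 in all) with a 3 kb window. Replicate 3 had 0 of them with a 500 bp window. At a q below 0.05 they were 0 in replicate 1, 0 in replicate 3 and 0 in all, and at the median fold 1, 0 and 1. Leaving out a replicate gave 1 to 3, with 1 without replicate 1. Smaller windows and stricter thresholds keep fewer peaks by construction. Every peak here rests on 3 to 9 fragments, and differences between libraries in depth were not removed.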
